A study of Mus musculus with 6 samples.

Results

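The transcripts of 4 neuronal microtubule-associated proteins, Map1a, Map1b, Map2 and Mapt (tau), were examined in the m6A peak list of adult mice with a global Fto knockout on a C57BL/6 strain background. Members were the listed peaks whose midpoint lay in 1 genomic window (mm9) set around each gene, and 90 of 29950 listed peaks (0.301%) qualified. RNA from microdissected midbrain and striatum, depleted of ribosomal RNA, gave 3 libraries immunoprecipitated with an m6A antibody (MeRIP) and 3 input libraries without immunoprecipitation. All 6 libraries carry the same knockout, adult age and tissue label. The labels do not say whether the libraries come from separate animals, and no group with intact Fto was analysed here. The 6 libraries point to 1 list of enriched regions, which holds a chromosome, a start and an end per region. There is thus no replicate error, no read depth and no height behind any value below, and the labelled tissue and the knockout could not be checked against marker genes.

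N6-methyladenosine (m6A) is a methyl mark on adenosines inside messenger RNA, laid down by the Mettl3-Mettl14 complex and read by proteins that affect splicing, translation and decay of the transcript. Fto encodes an RNA demethylase. In many mRNAs the mark is known to lie near the stop codon, in the 3′ untranslated region and in long internal exons. Microtubule-associated proteins bind and stabilise the microtubules of axons and dendrites, and their large transcripts are abundant in neurons. Map1a and Map1b each encode a precursor that is cut into a heavy and a light chain, and most of the coding sequence of each lies in 1 long exon. Map2 encodes a dendritic protein whose high-molecular-weight forms include a long exon that the short forms skip. Mapt encodes tau, which is mainly axonal and has a long 3′ untranslated region.

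The genes were chosen from this same peak list with results of it known, so their numbers and lengths of stretches are a description and carry no test. Touching peaks were merged into stretches, because the list divides longer enriched regions into parts. No exon limits in mm9 were used here. Place is therefore given as the distance from the 5′ edge of the window in the direction of transcription, introns included, and whether a stretch lies in coding sequence or in the 3′ untranslated region was not assigned. Map1a, Map2 and Mapt are transcribed towards higher coordinates and Map1b towards lower ones. The list gives no strand, so a stretch in a window cannot be told apart from one on an overlapping or antisense transcript.

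The 4 genes held 44 stretches that covered 15425 bp, 0.343% of the bases covered in the whole list. Map1a alone held 54.5% of those bases. Its window of 24.0 kb had 47 listed peaks in 13 stretches that covered 8400 bp, or 35.0% of the window. Map1b had 24 peaks in 16 stretches over 4075 bp, 3.70% of a window of 110 kb. The Map2 window spans 275 kb and had 9 peaks in 7 stretches over 1425 bp (0.518%). Mapt had 10 peaks in 8 stretches over 1525 bp, 1.47% of its 104 kb. The share of a window that is covered depends on the length of the window, introns included. The number of bases covered is not divided by that length, but covered bases in introns were not told apart. It also depends on the window limits, with 4275 bp in Map1b and 1775 bp in Mapt when windows were widened by 10 kb. By bases covered in the windows as set, Map1a stood first and Map1b second, and Mapt and Map2 lay 100 bp apart.

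**Figure D1:**
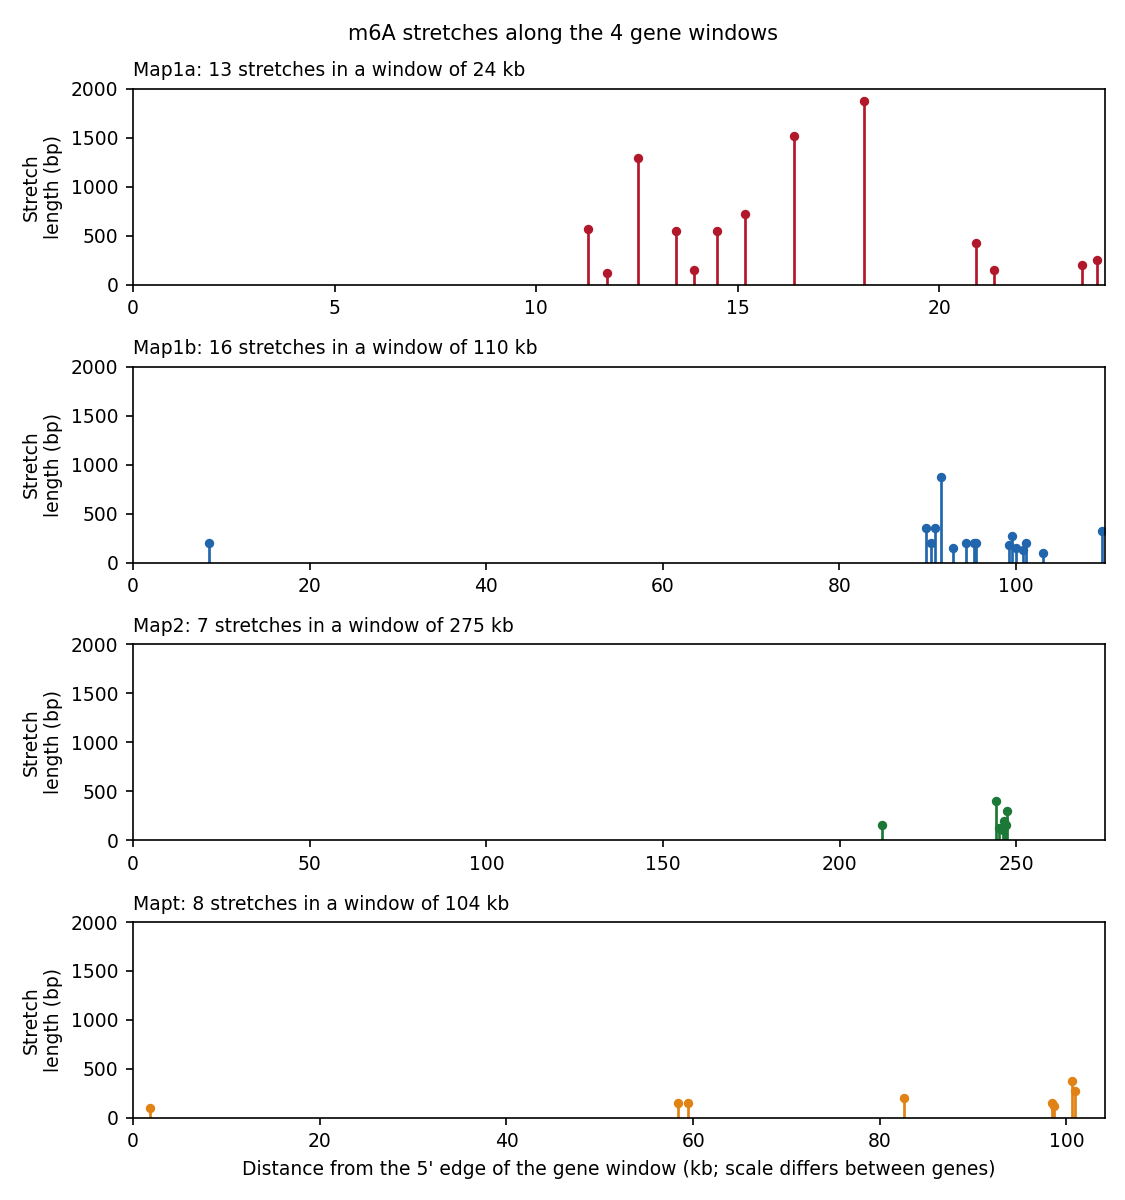
Length of each m6A stretch (bp, vertical axis) at its place along the gene window (kb from the 5′ edge, in the direction of transcription), with 1 panel per gene and 1 stem per stretch. Map1a reaches 1875 bp, and Map1b, Map2 and Mapt stay at or below 875 bp, with their tallest stems in the 3′ part of the window.

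Long stretches made up a larger part of the stretches in Map1a than in the whole list. In Map1a, 9 of 13 stretches were longer than 200 bp, beside 40.5% of the 19404 stretches in the whole list. The same held for 5 of 16 stretches in Map1b, 2 of 7 in Map2 and 2 of 8 in Mapt. Stretches of 600 bp or more make up 3.07% of the list. There were 4 of them in Map1a and 1 in Map1b, and none in Map2 or Mapt. Of the 81 stretches of at least 1000 bp in the list (0.417%), 3 lay in Map1a and none in the other genes. At shares of 3.07% and 0.417%, sets of 16, 7 and 8 stretches would hold few or none of these lengths. No lack of them can therefore be read in Map1b, Map2 or Mapt. The median stretch was 550 bp in Map1a, 200 bp in Map1b and 150 bp in both Map2 and Mapt, beside 200 bp in the whole list. Over the 4 genes together, 18 of 44 stretches (40.9%) exceeded 200 bp and the median was 200 bp, both close to the list. The median of Map1a lay above that of the list, that of Map1b equalled it, and those of Map2 and Mapt lay below it.

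**Figure D2:**
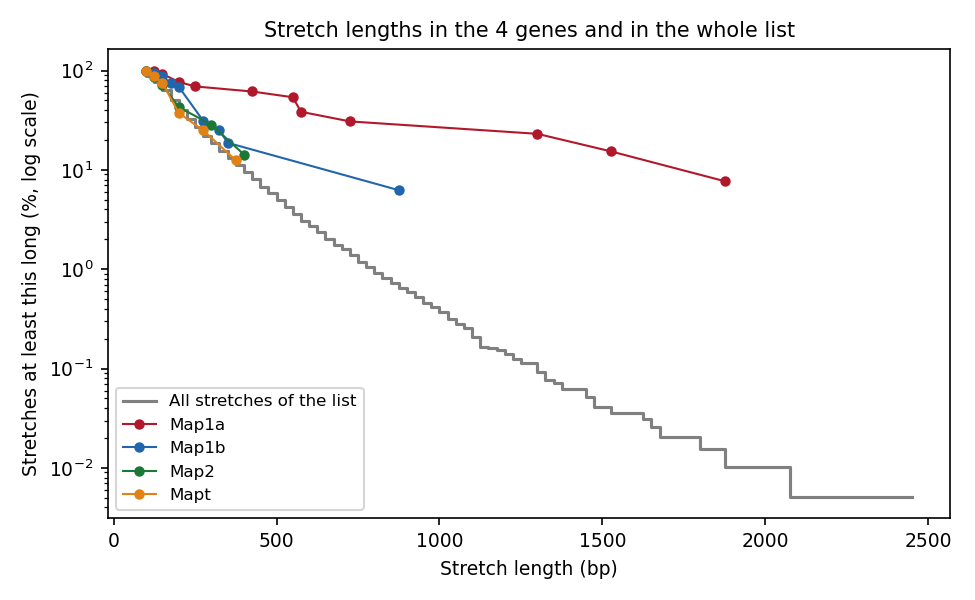
Percentage of stretches (log scale) that are at least as long as the length on the horizontal axis (bp), for each of the 4 genes and for all 19404 stretches of the list. The Map1a curve lies far to the right of the list up to 1875 bp, and Map2 and Mapt end at 400 and 375 bp. Map1b lies slightly above the list at most of its shorter plotted lengths and furthest from it at its single stretch of 875 bp.

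Map1a carried an almost continuous run of enrichment. To describe such runs, stretches up to 1.5 kb apart were joined into blocks, a distance chosen after the gaps had been seen. The first block of Map1a, on chromosome 2 at 121125001 to 121133075, spanned 8075 bp, of which 9 stretches covered 7375 bp (91.3%). No other of the 12392 blocks in the list covered as many bases, and the next covered 6150 bp, on chromosome 10 at 79773801 to 79783275. In span the Map1a block was the third longest. It also covered the most bases of any block when stretches were joined up to 1 kb or up to 3 kb apart.

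Within that block the longest stretches stood at its 3′ end, and the gaps between stretches were short. From 5′ to 3′, the first stretch measured 575 bp and was followed by a short one of 125 bp. The next, at 121125876 to 121127175, measured 1300 bp. A run of shorter stretches of 550, 150, 550 and 725 bp came after it. The block closed with 1525 bp at 121129626 to 121131150 and 1875 bp at 121131201 to 121133075. The last is the third longest stretch of the whole list, and the one before it ranks 8. The 8 gaps between the stretches measured 25 to 225 bp, with a median of 75 bp and a sum of 700 bp. With peaks up to 100 bp apart merged, the 3′ part of the block became 1 region of 4875 bp at 121128201 to 121133075, the longest region of the list in that setting. In consecutive bins of 1 kb from the 5′ end of the block, the lowest coverage was 72.5%, in the fourth bin, and the second, sixth and eighth bins were covered in full.

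The part of the Map1a window 3′ of this block held fewer covered bases than the block. After the block came 1625 bp without a peak and then 2 stretches of 425 and 150 bp at 121134701 to 121135425. A further 2000 bp without a peak led to stretches of 200 and 250 bp at 121137426 to 121138025, the last of which crosses the window edge by 25 bp. These 4 stretches 3′ of the block covered 1025 bp, 12.2% of the bases covered in Map1a. The first 11 kb of the window had no listed peak. Among protein-coding genes in the RefSeq order of GRCm38.p6, Map1a lies between Trp53bp1 on its 5′ side and Ppip5k1 on its 3′ side. Trp53bp1 encodes a DNA damage response protein and Ppip5k1 an inositol pyrophosphate kinase. Whether Map1a, Ppip5k1 or another transcript gives rise to the 2 stretches at the 3′ window edge was not tested. The nearest stretches outside the window lay 51500 bp below it and 51300 bp above it.

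**Figure D3:**
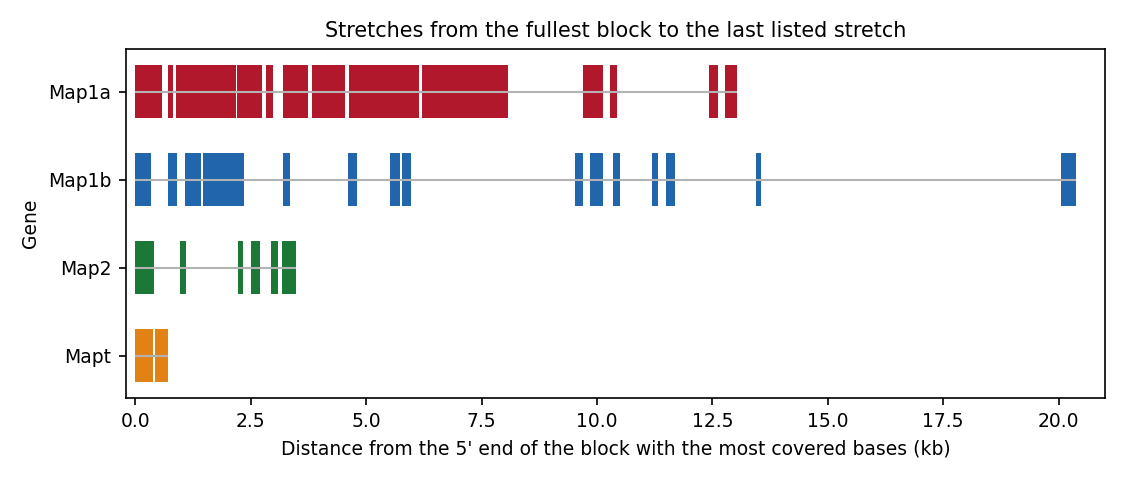
Stretches of each gene as filled boxes on 1 common scale, in kb from the 5′ end of the block that covers the most bases, up to the last stretch in the window. Map1a is filled almost without a break over 8075 bp, Map1b is broken by wider gaps and has a second group of stretches further 3′, and the fullest blocks of Map2 and Mapt, which have no stretch 3′ of them, span 3475 and 700 bp.

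Map1b, which encodes the relative of Map1a that is prominent in growing axons, had its enrichment in 2 groups of stretches towards its 3′ end. The larger, on chromosome 13 at 100199401 to 100205375, spanned 5975 bp, of which 8 stretches covered 2525 bp (42.3%). The smaller, at 100193676 to 100195850, spanned 2175 bp with 5 stretches over 925 bp (42.5%). They were separated by 3550 bp without a peak. The larger group held 62.0% of the bases covered in Map1b and the smaller 22.7%. In bases covered, the larger ranked 21 of the 12392 blocks of the list, tied with 3 others at that value. When stretches were joined up to 1 kb apart, its 5 most 5′ stretches formed a block of their own with 1925 covered bp, which ranked 49 of 12907.

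Coverage of the larger Map1b group was greatest near its 5′ end. The Map1a block had its longest stretches at the 3′ end, but its coverage was 72.5% or more in every bin. The stretches of the larger Map1b group from 5′ to 3′ measured 350, 200, 350 and 875 bp, the last at 100203026 to 100203900. They were followed by shorter and more widely spaced stretches of 150, 200, 200 and 200 bp. In bins of 1 kb from the 5′ end, 55.0%, 87.5%, 35.0%, 15.0% and 20.0% of bases were covered, and 41.0% of the last 975 bp. The 5 stretches of the smaller group were between 125 and 275 bp long, with gaps of 150 to 700 bp. Whether they are separate m6A sites cannot be told from the list. The 7 gaps of the larger group ranged from 50 to 1250 bp, with a median of 350 bp against 75 bp in the Map1a block.

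Outside these groups the Map1b window had 3 further stretches. A stretch of 200 bp at 100286351 to 100286550 lay 8.45 kb from the 5′ edge of the window, and 80975 bp without a peak separated it from the larger group. A stretch of 100 bp stood at 100191826 to 100191925, 3′ of the smaller group. The last, 325 bp at 100185001 to 100185325, began on the first base of the window, 6500 bp beyond that stretch. A stretch of 200 bp just outside the window ended 25 bp before it, and joining them gives a block of 525 covered bp. The protein-coding gene next to Map1b on that side in the GRCm38.p6 order is Mrps27, which encodes a mitochondrial ribosomal protein. Which gene the edge stretch belongs to was not tested.

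In Map2 the enrichment was short of the 3′ end of the window. A block on chromosome 1 at 66459076 to 66462550 held 6 of the 7 stretches and 89.5% of the bases covered, 1275 bp within a span of 3475 bp (36.7%). The stretches from 5′ to 3′ measured 400, 125, 100, 200, 150 and 300 bp, so the longest stood at the 5′ border and the second longest at the 3′ border of the block. By bins of 1 kb, coverage was 42.5%, 10% and 35.0%, and 84.2% in the last 475 bp. The only other stretch, 150 bp at 66427076 to 66427225, lay 31850 bp upstream. The first 212.1 kb of the window had no listed peak, and neither had the 27.45 kb from the end of the block to the end of the window. The nearest stretches outside lay 779575 bp below and 24500 bp above the window, the latter on the side of Unc80, the gene of a sodium leak channel subunit.

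Mapt had scattered short stretches and a small group at its 3′ end. The fullest block, on chromosome 11 at 104191376 to 104192075, held stretches of 375 and 275 bp that covered 650 of 700 bp (92.9%), and it carried 42.6% of the bases covered in Mapt. A pair of stretches of 150 and 125 bp at 104189376 to 104189675 lay 1700 bp before it. The last listed base was 2.925 kb from the 3′ edge of the window. Further 5′, 4 stretches of 100 to 200 bp were spread over the window. A stretch of 100 bp lay 1.80 kb from the 5′ edge, at 104092801 to 104092900, and a pair of 150 bp stood at 104149301 to 104149450 and 104150326 to 104150475. A stretch of 200 bp followed at 104173451 to 104173650. Gaps of 56400, 22975 and 15725 bp separated these single stretches and the pair from each other and from the 3′ stretches. A stretch of 250 bp lay 1275 bp beyond the 3′ window edge, on the side of Kansl1, a gene for a chromatin regulator, and is not counted.

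The place of the covered bases was also measured along the span of each gene's stretches. In Map1a, 11.4% of covered bases fell in the last 25% of the distance between the first and the last listed base, because the run of 8075 bp began at that first base. The share was 95.1% in Map1b, 89.5% in Map2 and 73.8% in Mapt. The order of these shares rests on the most 5′ stretch of each gene, which sets the span. Without the lone 200 bp stretch of Map1b, its span fell from 101.55 to 20.4 kb and its share to 8.39%, below the 9.98% of Map1a without its own most 5′ stretch. The shares of Map2 and Mapt without theirs were 42.6% and 64.9%. In the last 25% of the window, the Map1a share was 25%, the value that an even spread over the window would give. These distances include introns and span 13.025 kb in Map1a, 101.55 kb in Map1b, 35.5 kb in Map2 and 99.3 kb in Mapt, so 25% is not the same length in each gene. The part 3′ of the fullest block held 33.1% of the covered bases in Map1b, against 12.2% in Map1a and none in Map2 and Mapt, where the fullest block was the last. Its longest stretch was 425 bp in Map1a and 325 bp in Map1b, the latter on the window edge. The stretches at the 3′ window edge, whose gene was not tested, are part of these shares. They held 5.36% of the covered bases in Map1a and 7.98% in Map1b. In none of the 4 genes was the longest stretch the most 3′ one in the window, although in Mapt it was the last but one.

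**Figure D4:**
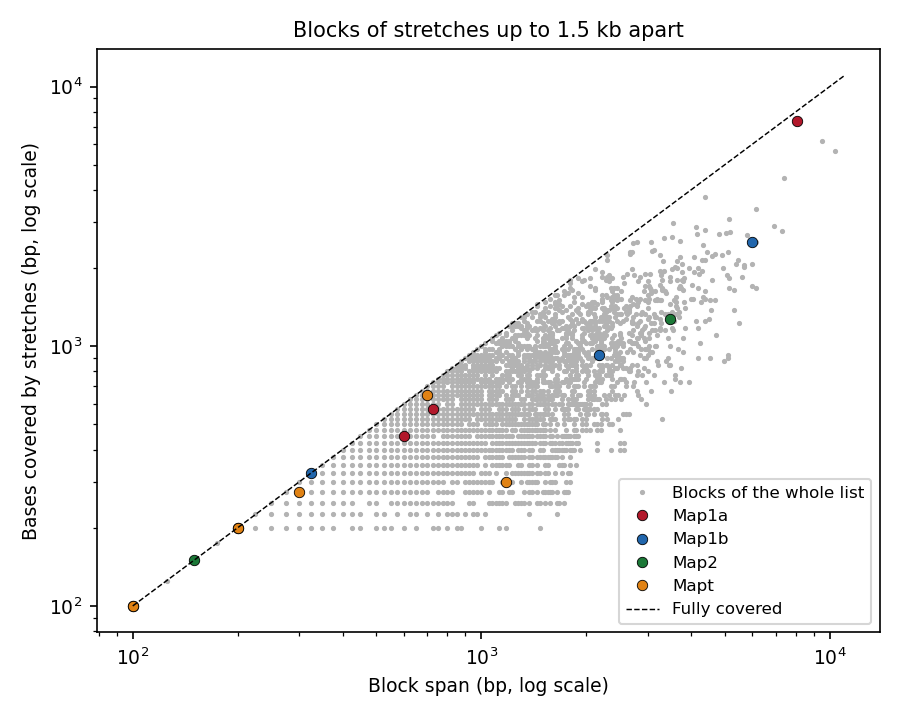
Bases covered by stretches against the span of each block (bp, both on log scales), for all 12392 blocks of the list in grey and for the blocks of the 4 genes in colour, with blocks of equal size drawn on top of each other. The first Map1a block is the highest point and lies near the dashed line of full coverage, while the larger Map1b group and the Map2 block lie well below that line.

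Among the 12392 blocks of the list, 66.7% held a single stretch, and the median block covered 250 bp. The fullest block of Map2 ranked 308 in bases covered, a value that 12 blocks shared. When stretches were joined up to 1 kb apart, it covered 750 bp and ranked 1105 of 12907 blocks. That of Mapt ranked 1581, a value that 131 blocks shared. When stretches were joined up to 3 kb apart, the fullest Mapt block took in 4 stretches over 925 bp and ranked 833 of 11598. Among the 12392 blocks, the 99th percentile of bases covered was 1650 bp. The first Map1a block and the larger Map1b group exceeded it, and the fullest blocks of Map2 and Mapt did not.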

How the data were processed

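The authors' deposited list holds 3 columns without a header (chromosome, start, end) for the 6 libraries together. The submitters' processing notes name the mm9 build, SAMtools 0.1.18 and BWA 0.6.2-r126. The caller of the peaks, its threshold and the way of combining libraries were not given in the sources used here. An unlisted region can have low transcript level, low depth or little m6A, which the list cannot tell apart.

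Listed peaks were assigned to a gene by their midpoint, and touching peaks (gap of 0 bp) were merged. Stretches up to 1.5 kb apart were joined into blocks. All 4 genes were named, with the 5 longest stretches of each and the nearest stretch outside each window. The genes, windows and lists were chosen with earlier results of these data known. Gene order, limited to protein-coding genes, came from a RefSeq table of GRCm38.p6. Directions of transcription came from RefSeq promoter entries of that build, except that of Mapt, which is background knowledge. No coordinate was compared between builds. Coordinates are mm9, 1-based. No sequence of the stretches and no other microtubule gene was analysed here, since both need the mm9 genome or its annotation. Merging was tested on simulated data. Python 3.11.15, numpy 2.4.6, pandas 2.3.3, scipy 1.17.1 and matplotlib 3.10.9 were used.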

Additional observations from a re-analysis of the deposited data

How the results depend on the processing

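How stretches were merged set their number and length. Without merging, Map1a had 47 regions. Merging peaks up to 100 bp apart left 7 in Map1a, with a longest region of 4875 bp, and gave 700 bp in Mapt. Merging up to 500 bp left 3 regions in Map1a, 9 in Map1b and 4 in Map2, with longest regions of 8075, 2350, 1250 and 700 bp in Map1a, Map1b, Map2 and Mapt. With stretches over 200 bp alone, Map1b kept 5 (2175 bp), Map2 2 (700 bp) and Mapt 2 (650 bp). The 3′ share of Map1a was 12.2% in the last 33.3% of the span, 25% in the last 25% of the window and 10.5% without the edge stretches, and that of Map2 was 100% in the last 25% of the window. Without the most 5′ stretch of each gene the shares were 9.98% in Map1a, 8.39% in Map1b, 42.6% in Map2 and 64.9% in Mapt. Settings chosen after seeing the data were all joining distances, leaving out blocks within 1 kb of a window edge and leaving out the most 5′ stretch. Joining up to 3 kb put Map1a in 1 block, and joining up to 1 kb cut the fullest Map2 block to 750 bp. Assigning peaks by any overlap, or windows widened by 10 kb, changed no number of stretches by more than 1. No paired analysis was possible because all libraries share 1 set of coordinates, which also prevents leaving out a replicate. The list shows neither depth nor transcript level nor the threshold of a peak, and these limit what an unlisted base means.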
